A study of Mus musculus with 9 samples.

Results

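Ubiquitin-conjugating enzymes (E2 enzymes) and ubiquitin-specific proteases (USPs) act at opposite ends of ubiquitin signalling, and their mRNAs were compared here for the tags they carried in FMRP and in Hu HITS-CLIP libraries of mouse brain polyribosomes. The E2 genes were all genes of the authors' gene table whose symbol begins with Ube2, and the USP genes were those named Usp followed by a digit. This rule took 86 of 29436 genes, 33 of them E2 genes and 53 USP genes. The names of 4 genes do not match their group by function: Ube2cbp, later named Ube3d, is counted as a ligase, Usp6nl encodes a Rab GTPase-activating protein, Usp52 is listed as Pan2, a subunit of a poly(A) nuclease, and Usp39 is a splicing factor without protease activity. They were kept because the rule goes by symbol.

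Ubiquitin is activated by an E1 enzyme, passed to an E2 enzyme and transferred to a substrate with the help of an E3 ligase, and deubiquitinases such as the USPs remove it again. Most E2 enzymes consist of little more than one compact catalytic domain, whereas many USPs are large proteins with long flanking regions. In neurons the ubiquitin system adjusts the content of synapses and clears damaged proteins, and Ube3a, an E3 ligase, is the gene of Angelman syndrome.

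In HITS-CLIP, ultraviolet light fixes RNA to the protein in contact with it, the complex is precipitated, and the trimmed RNA is read as sequence tags. FMRP, which binds RNA, is absent in fragile X syndrome, and the neuronal Hu proteins, which bind U-rich stretches of mRNA, were the comparison on the same polyribosomes. All 9 libraries came from pooled FVB littermates, whose cortex and cerebellum were dissected away from white matter. For FMRP with Protocol 2 (dissociation in 2% SDS), the polyclonal antibody ab17722 and Illumina sequencing, 2 libraries were made, at postnatal days 11 and 13 (P11 and P13). Protocol 1 (1% SDS) with 454 sequencing gave 3 FMRP libraries with the monoclonal antibodies 7G1-1 and 2F5 (P14, P15 and P25) and 2 with ab17722 (P14 and P25). The 2 Hu libraries, precipitated with a human antiserum, were made with Protocol 2 on Illumina from the same P11 and P13 lysates as FMRP. Each library is a pool of mice, and replicates of a group differ in age. Per the series text, Fmr1-null littermates were processed in parallel in most experiments, and libraries from them were not analysed here.

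Transcript tags numbered 26794 and 44076 in the FMRP Illumina libraries, 4397 to 7713 in the FMRP 454 libraries, and 25873 and 49847 in the Hu libraries. A gene with 0 tags could therefore still hold up to 3 counts, which is 60.2 CPM (the usual scaling of counts to library size) in the deepest library and 682 CPM in the shallowest. All 8 neuronal markers had tags, summing to 1592 to 5156 CPM in the FMRP libraries and 7575 to 10552 CPM in the Hu libraries. All 6 oligodendrocyte markers did too, with 187 to 2609 CPM in FMRP and 6764 to 15828 CPM in Hu. The 5 astrocyte markers lay between 533 and 1945 CPM in FMRP and between 77.3 and 241 CPM in Hu. Of the microglial markers 1 of 4 had a tag (Cx3cr1, P2ry12 and C1qa were at 0), of the endothelial markers 2 of 3 (Cldn5 at 0), and of markers from outside brain 2 of 5, with 3 tags in all (Alb, Apoa1 and Ins2 at 0). The part of these levels in the results on E2 and USP genes was not tested. Tag counts in such libraries follow protein contact and mRNA amount together, and fewer cells of a type cannot be told apart from less RNA per cell.

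The 2 groups differ in the build of their mRNAs. The coding sequence had a median of 560 nt in E2 genes (438 to 3867 nt, n = 33), against 2680.5 nt in USP genes (903 to 7747 nt, n = 46 with a length) and 1254 nt over all genes of the table. Ube2o, which encodes an unusually large enzyme with both E2 and E3 activity, is the longest E2 gene. Whole transcripts had medians of 2407 nt in E2 genes and 4735 nt in USP genes, so that coding sequence took a median of 27.7% of an E2 transcript and 56.4% of a USP transcript. Most of an E2 mRNA is thus untranslated. The authors' exon array intensity, a measure of mRNA abundance from another experiment, had a median of 391 in E2 genes (n = 32), 259 in USP genes (n = 50) and 113 over all genes (n = 19997). By the median, E2 mRNAs were therefore not the scarcer group on the array. The ranges between the quartiles overlapped, with 94.8 to 669 in E2 genes and 125 to 451 in USP genes.

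FMRP tags were fewer on E2 mRNAs than on USP mRNAs. In the authors' counts over the 7 FMRP libraries, the 33 E2 genes held 88 tags in all and the 53 USP genes 728, a mean of 2.67 tags per E2 gene and 13.7 per USP gene, against 3.47 over all 29436 genes. At least 1 tag was found on 22 E2 genes (66.7%) and on 42 USP genes (79.2%), against 30.5% of all genes. The median was 1 tag per E2 gene and 5 tags per USP gene, against 0 over all genes. A tag in 4 or more of the 7 libraries was found for 2 E2 genes (6.06%) and 20 USP genes (37.7%), against 9.51% of all genes. USP genes were above all genes in each of these measures, whereas E2 genes were above them in the share with any tag and in the median and below them in the mean and in the share with 4 or more libraries. Per kb of transcript, the median FMRP level was 1.65 CPM per kb in E2 genes and 9.64 CPM per kb in USP genes with a length. In the authors' deposited table, 1 E2 gene (Ube2o) and 5 USP genes (Usp34, Usp9x, Usp22, Usp32 and Usp5) have an FDR score under 0.01, against 2.85% of all genes. At 0.05 these counts are 1 E2 gene and 9 USP genes, against 3.74% of all genes.

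**Figure D1:**
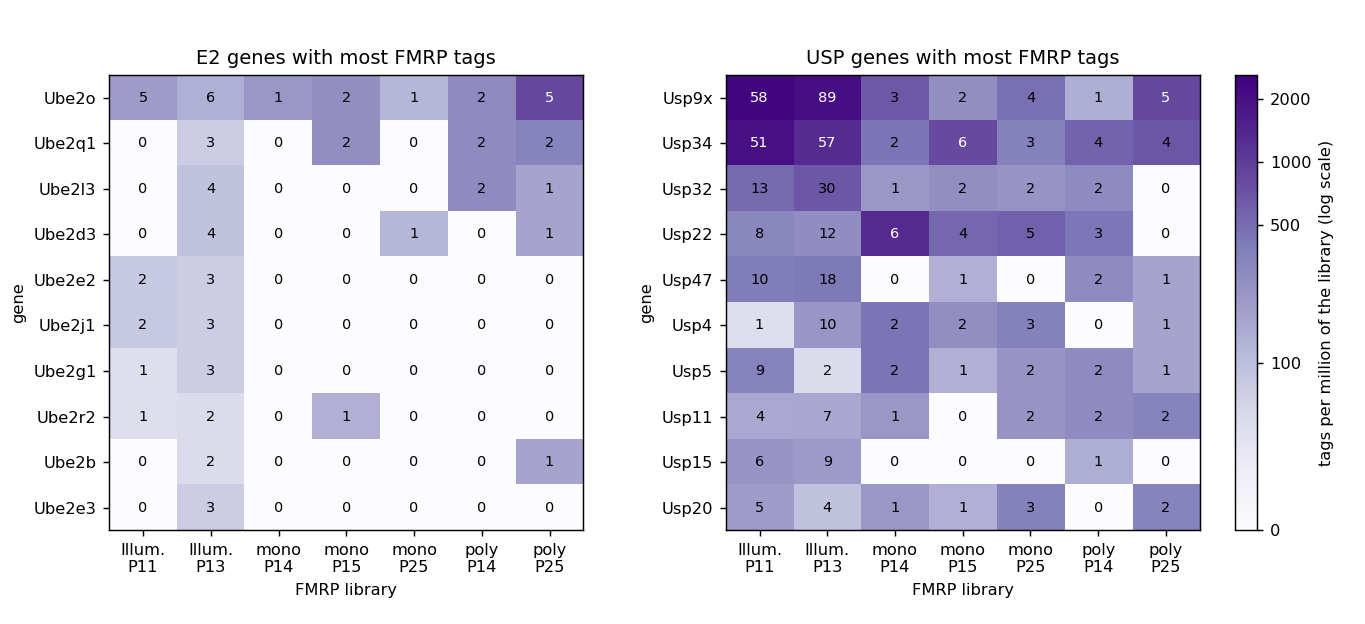
Tags per library in the authors' counts for the 10 E2 genes and the 10 USP genes with most FMRP tags. Numbers in the cells are tags, the colour is CPM on a log scale, and columns are the FMRP libraries (Illum., Protocol 2 with the polyclonal antibody; mono and poly, Protocol 1). Ube2o alone among the E2 genes has a tag in all 7 libraries, and Usp9x and Usp34 reach 89 and 57 tags in the P13 Illumina library.

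Ube2o led the E2 genes. It had 5 and 6 tags in the FMRP Illumina libraries at P11 and P13, 1, 2 and 1 with the monoclonal antibodies at P14, P15 and P25, and 2 and 5 with the polyclonal antibody at P14 and P25. It averaged 298 ± 252 CPM (SD, n = 7), and the P25 polyclonal library was the highest at 852 CPM. Ube2q1 followed with 9 tags, Ube2l3, an E2 partner of parkin, with 7, and Ube2d3, which works with many E3 ligases, with 6. No other E2 gene had more than 5 FMRP tags over the 7 libraries in the authors' counts.

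Among the USP genes, Usp9x, an X-linked deubiquitinase needed for neuronal development, held 58 and 89 tags in the FMRP Illumina libraries, 3, 2 and 4 in the monoclonal libraries and 1 and 5 in the polyclonal 454 libraries. It averaged 962 ± 854 CPM (SD, n = 7), and both Illumina libraries were far above the 454 libraries. Usp34, which removes ubiquitin from axin in Wnt signalling, had 51 and 57 tags on Illumina, 2, 6 and 3 with the monoclonal antibodies and 4 and 4 with the polyclonal antibody on 454. Its mean was 883 ± 583 CPM, again highest on Illumina. Usp22, the histone deubiquitinase of the SAGA complex, averaged 500 ± 419 CPM. Its highest value, 1338 CPM in the P14 monoclonal library, rested on 6 tags, and the P25 polyclonal library had 0. The Illumina libraries had 8 and 12 tags, and at such counts the order of the libraries is uncertain. Usp32 averaged 317 ± 221 CPM, Usp5, which takes apart unanchored ubiquitin chains, 240 ± 136, Usp4 216 ± 161, Usp11 201 ± 110, Usp47 199.8 ± 171 and Usp20 192 ± 130 (SD, n = 7 each). Usp5 had a tag in all 7 libraries, as did Usp9x and Usp34. Scaled to transcript length, Usp22 was the highest of the USP genes with a length (117 ± 97.9 CPM per kb), with Usp5 (75.4 ± 42.8) and Usp9x (70.7 ± 62.7) below it, and Ube2o at 57.4 ± 48.5. These levels overlap within their SDs.

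Usp24 and Usp31 are listed with 0 FMRP tags in the authors' counts, yet the transcript tag lists place 38 FMRP tags on Usp24 and 82 on Usp31, both on predicted transcripts. Conversely, Usp34, Usp11, Usp4 and Ube2q1 have FMRP tags in the authors' counts and none in any transcript list, Hu included. Hu could therefore not be measured on these 4 genes by transcript. Usp9x has 86 and 148 FMRP Illumina tags in the transcript lists, against 58 and 89 in the authors' counts. The 2 sources differ for E2 genes too: over the 7 FMRP libraries Ube2r2 has 11 tags in the transcript lists, against 4 in the authors' counts. No tag of any kind was found on 6 E2 genes and 8 USP genes.

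FMRP and Hu libraries from the same lysates were set against each other to see on which mRNAs the balance of tags differed. Summed over the group, E2 genes took 0.0821% (95% Wilson interval 0.0542% to 0.124%) and 0.129% (0.0998% to 0.167%) of the tags in the FMRP P11 and P13 libraries, against 0.414% (0.342% to 0.499%) and 0.522% (0.462% to 0.589%) in the Hu P11 and P13 libraries. The share was 4.42-fold lower in FMRP, with log2 differences of -2.33 in the P11 lysate and -2.01 in the P13 lysate. USP genes went the other way. Their share was 0.967% (0.856% to 1.09%) and 0.892% (0.808% to 0.984%) in FMRP, against 0.472% (0.395% to 0.563%) and 0.520% (0.460% to 0.587%) in Hu, which is 1.87-fold higher in FMRP, with log2 differences of 1.04 and 0.78. The FMRP and Hu libraries did not overlap in either group. In the 454 FMRP libraries, too, the E2 share (0.0455% to 0.196%) was below the USP share (0.355% to 0.682%) in each library. The direction for E2 genes held without Ube2k, the E2 gene with most tags, and that for USP genes without Usp9x.

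**Figure D2:**
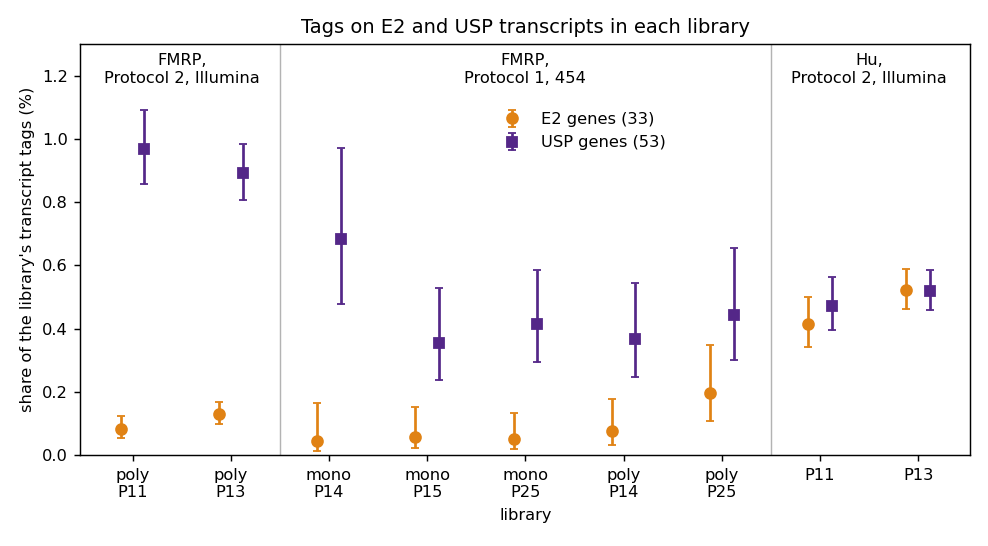
Share of each library's transcript tags that fell on the 33 E2 genes (circles) and the 53 USP genes (squares), in percent, with 95% Wilson intervals that cover counting error only. In the FMRP Protocol 2 libraries the USP share is 0.892% and 0.967% and the E2 share 0.0821% and 0.129%, whereas in the Hu libraries both shares lie between 0.414% and 0.522%.

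Single genes were tested with edgeR (quasi-likelihood, p adjusted by Benjamini-Hochberg over all 1015 genes that passed the filter on low counts). This called 341 genes higher in FMRP (33.6%) and 277 lower (27.3%), 60.9% in either direction, and the median log2 difference was -0.16. DESeq2 called 334 higher and 128 lower. Of the members, 4 E2 genes and 6 USP genes passed the filter. All 4 E2 genes tested (Ube2n, Ube2k, Ube2w and Ube2j1) were lower in FMRP, and 3 of the 6 USP genes tested (Usp24, Usp47 and Usp9x) were higher. The other 29 E2 genes and 47 USP genes had too few tags for the test, and since a gene passes with tags in 1 of the proteins, the members tested do not stand for all. Both proteins are compared relative to each other, so a gene lower in FMRP has relatively more Hu tags.

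Ube2n, which builds lysine-63-linked ubiquitin chains, had 0 and 2 tags in FMRP P11 and P13, against 18 and 39 in Hu P11 and P13. Both Hu libraries were far above both FMRP libraries. The level was 21.8-fold lower in FMRP (95% exact counting interval 5.76 to 184), with a log2 difference of -4.30 (SE 0.96, edgeR adjusted p = 0.0052). Ube2k, which makes lysine-48-linked chains and binds huntingtin, had 0 and 6 FMRP tags and 18 and 52 Hu tags. It was 8.92-fold lower in FMRP (3.90 to 25.1; log2 -3.09, SE 0.96, edgeR adjusted p = 0.0214). Ube2w, which attaches ubiquitin to the N terminus of proteins, had 0 and 4 FMRP tags and 11 and 25 Hu tags. The difference was 6.88-fold (2.47 to 26.6; log2 -2.72, SE 0.81, edgeR adjusted p = 0.0176). With 1 tag per position Ube2w had too few tags for the test. Ube2j1, an E2 enzyme of the endoplasmic reticulum membrane that serves the degradation of misfolded proteins, had 2 and 4 FMRP tags and 11 and 31 Hu tags, a 5.35-fold difference (2.26 to 15.4; log2 -2.33, SE 0.69, edgeR adjusted p = 0.0170). In these 4 genes the FMRP and Hu libraries did not overlap. Each of these calls rested on single libraries: without the Hu P13 library none of the 4 E2 genes was called, without FMRP P11 Ube2n alone, without Hu P11 Ube2k and Ube2n, and without FMRP P13 Ube2k, Ube2n and Ube2w, with FMRP lower in each case. Ube2j1 was not called once any 1 library was left out, and DESeq2 called neither Ube2j1 nor Ube2w. The log2 difference of Ube2k moved to -1.88 and that of Ube2w to -1.54 without FMRP P11, while without FMRP P13 no FMRP tag of Ube2n, Ube2k or Ube2w was left.

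Usp24 had 15 and 17 tags in FMRP and 0 and 0 in Hu. It passed the filter on low counts only through its FMRP tags, so its direction was tied to being tested. With Hu set to 3 counts over its libraries, it was at least 13.9-fold higher in FMRP (edgeR adjusted p = 0.00223). Usp47, which deubiquitinates DNA polymerase beta, had 10 and 21 FMRP tags and 2 and 0 Hu tags. It was 20.3-fold higher in FMRP (95% exact counting interval 5.16 to 175; log2 4.11, SE 0.91, edgeR adjusted p = 0.0052). Without the FMRP P13 library Usp47 had too few tags for the test, and without Hu P11 no Hu tag was left. Usp9x had 86 and 148 FMRP tags and 42 and 64 Hu tags, with the FMRP libraries above the Hu libraries and a 2.89-fold difference (2.29 to 3.67; log2 1.46, SE 0.54, edgeR adjusted p = 0.0411). This call was lost with DESeq2 (adjusted p = 0.0546), with scaling to library totals (0.0624), without the filter on low counts (0.345), with 1 tag per position (0.0540) and without the Hu P11 library (0.234).

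Usp9x stood apart in where its tags could be placed. The same sequencing read can be looked up in the list of tags placed uniquely on the genome, and 62.8% to 79.2% of the transcript tags of each Illumina library had their read there. For Usp9x this was 138 of 234 FMRP tags (59.0%), 8 of them outside the gene's bounds, and 5 of 106 Hu tags (4.72%). No other member with at least 10 tags of a protein had fewer than 46.2% of them in the genomic list. Counted on tags with a unique genomic place, Usp9x had 56 and 82 tags in FMRP and 1 and 4 in Hu, with a log2 difference of 5.05 (edgeR adjusted p = 1.20e-06), and the calls of the other 6 members were kept. On genomic tags within the gene's bounds the log2 difference was 3.28. The Hu level of Usp9x thus depends on how tags are placed, and the source of the Hu tags without a unique genomic place was not tested.

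Usp32, Usp31 and Usp22 were tested and not called. Usp32 had 15 and 29 FMRP tags and 12 and 31 Hu tags (log2 0.44, SE 0.64, edgeR adjusted p = 0.560). Usp31 had 24 and 44 FMRP tags and 16 and 67 Hu tags (log2 0.21, SE 0.62, edgeR adjusted p = 0.784). Usp22 had 8 and 12 FMRP tags and 11 and 17 Hu tags (log2 -0.13, SE 0.61, edgeR adjusted p = 0.863). The libraries of the 2 proteins overlapped in all 3 genes, and with SEs of 0.61 to 0.64 a difference of moderate size was not detectable. The sign of these values was not stable: Usp31 ranged from -0.45 to 1.34 and Usp22 from -0.23 to 0.34 as single libraries were left out, and Usp32 was at -0.17 on genomic tags.

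Members with at least 10 tags over the 4 Illumina libraries were also read by whether the libraries overlapped, after scaling. Of 14 such E2 genes, both FMRP libraries lay above both Hu libraries in 1 (Ube2o) and both Hu libraries above both FMRP libraries in 9, while 4 overlapped. Of 21 such USP genes, FMRP lay above Hu in 12 and Hu above FMRP in 2, and 7 overlapped. Over all 3393 genes with as many tags, the shares were 36.3% with FMRP above and 35.3% with Hu above. Ube2o had 6 and 4 FMRP tags against 2 and 0 Hu tags, 6.54-fold higher in FMRP (95% exact counting interval 1.39 to 61.4). Ube2q2, with 0 and 1 FMRP tags against 4 and 11 Hu tags, and the H2B-ubiquitinating enzyme gene Ube2b, with 0 and 2 against 2 and 13, lay on the Hu side. Ube2d3 had 0 and 4 FMRP tags and 3 and 25 Hu tags and overlapped, as did Ube2v2, the inactive partner of Ube2n, with 2 and 3 FMRP tags and 2 and 14 Hu tags.

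On the USP side, Usp15 had 7 and 6 FMRP tags and Usp5 had 10 and 2, and both had 0 Hu tags, at least 5.67-fold and 5.23-fold higher in FMRP against 3 counts over both Hu libraries. Usp20 had 5 and 5 FMRP tags against 2 and 1 Hu tags. The 2 USP genes with Hu above FMRP were Usp14, a deubiquitinase that sits on the proteasome, with 1 and 1 FMRP tags against 4 and 11 Hu tags, and Usp46, a regulator of glutamate receptors whose coding sequence is among the shorter ones of the group at 1101 nt, with 3 and 5 against 7 and 16. Usp12, a close relative of Usp46, had 1 and 4 FMRP tags and 3 and 9 Hu tags and overlapped. Usp7, which acts on Mdm2 and p53, had 7 and 5 FMRP tags against 7 and 6 Hu tags, Usp33 3 and 12 against 0 and 9, and Usp45 3 and 7 against 3 and 6, with overlap in all 3.

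**Figure D3:**
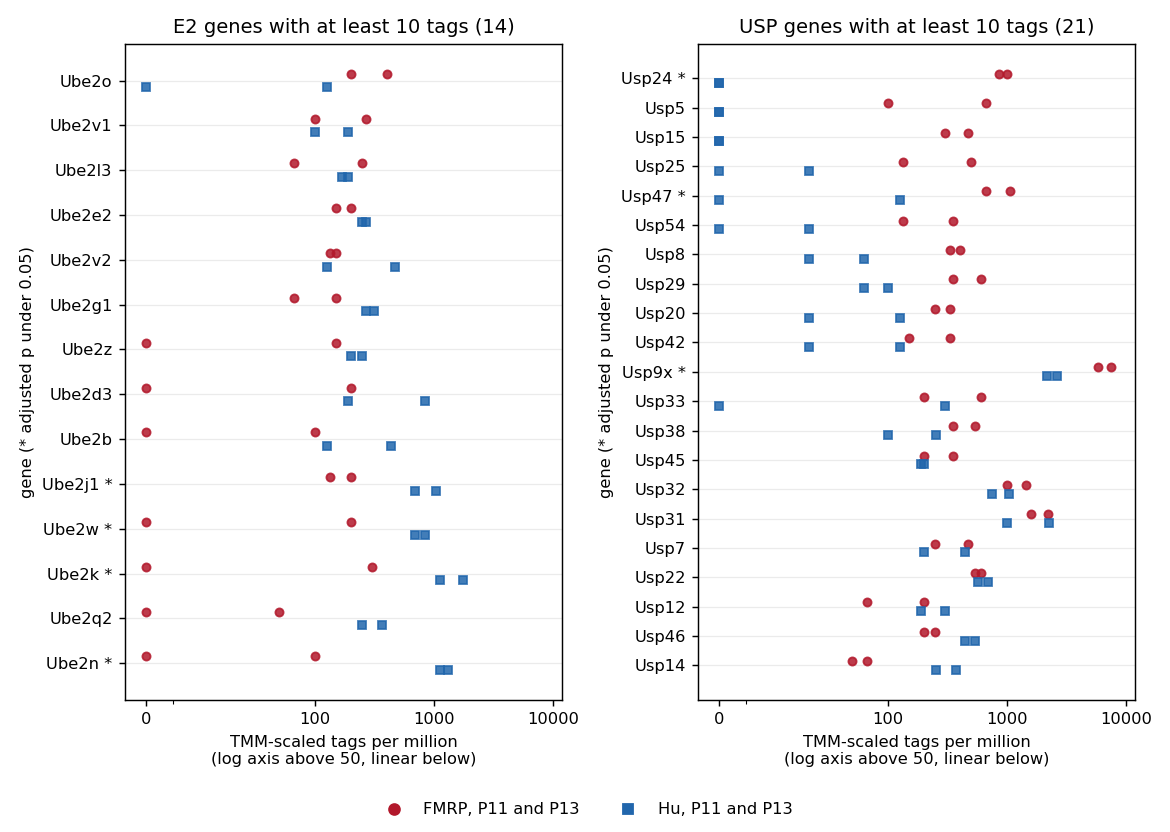
CPM (scaled with TMM to the tested genes; symmetric log axis) of the E2 genes (left) and USP genes (right) with at least 10 tags over the 4 Illumina libraries. Each gene has 2 FMRP points (circles, P11 and P13) and 2 Hu points (squares, P11 and P13), and an asterisk marks an edgeR adjusted p under 0.05. Both FMRP points lie above both Hu points in 1 of 14 E2 genes and 12 of 21 USP genes.

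Usp34, which has no transcript in the tag lists, could be compared through tags placed on the genome within its bounds (mm9 chromosome 11, 23206895 to 23391312, introns included). It had 51 and 58 FMRP tags and 4 and 9 Hu tags, a log2 difference of 3.21 (SE 0.69, edgeR adjusted p = 0.00133). On these genomic tags 1095 genes were tested, with 23.8% higher and 27.0% lower in FMRP. Among the members, Usp34, Usp47 and Usp9x were higher, and Ube2e2, Ube2j1, Ube2k, Ube2n, Ube2w and Usp46 were lower. Ube2e2 had 2 and 6 FMRP genomic tags against 14 and 21 in Hu (log2 -2.08, SE 0.65), although its transcript tags, 3 and 3 against 4 and 8, were close. Usp46 had 3 and 12 against 13 and 43 (log2 -1.82, SE 0.68). Genomic counts take in introns and both strands. In both genes the Hu genomic tags outnumbered the Hu transcript tags, which were 7 and 16 in Usp46.

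Between the 2 groups the direction of the members went with coding length, as it did over all tested genes. Within the E2 genes no such relation was seen, but nearly all of them are short. Usp24 and Usp31 have no coding length and are not part of this comparison. Of 180 tested genes with a coding sequence under 1000 nt, 0.556% were higher and 70.0% lower in FMRP, with a median log2 difference of -2.39. From 1000 nt to under 3000 nt (392 genes) 15.1% were higher and 31.9% lower, and from 3000 nt on (371 genes) 68.5% were higher and 2.70% lower, with a median of 2.89. The 4 E2 genes tested all fall in the first class and Usp32, Usp47 and Usp9x in the last. These 4 E2 genes passed the filter on low counts only through their Hu tags, and Usp47 only through its FMRP tags. Their direction was thus tied to being tested and is no separate evidence for a relation with length. Set against genes of their own length, Ube2n (459 nt, log2 -4.30) lay below the lower quartile of its class, -3.01, as did Ube2k at -3.09, whereas Ube2w and Ube2j1 lay between it and the upper quartile, -1.82. Usp32, at 0.44, lay below the lower quartile of its class, 1.29, while Usp9x and Usp47 lay above it. Spearman's rho between coding length and the log2 difference was 0.762 across the 943 tested genes with a length. Across the 33 members with at least 10 tags, rho between coding length and the FMRP share of scaled tags was 0.729, which includes the gap between the 2 groups. Within the 14 E2 genes it was -0.0628 and within the 19 USP genes 0.455. Apart from Ube2o at 3867 nt, these E2 genes span only 438 to 1137 nt, which leaves little range for a relation to show. Ube2o was also the only E2 gene of the 14 with both FMRP libraries above both Hu libraries. These values are across genes, which share the same libraries and are not independent replicates.

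**Figure D4:**
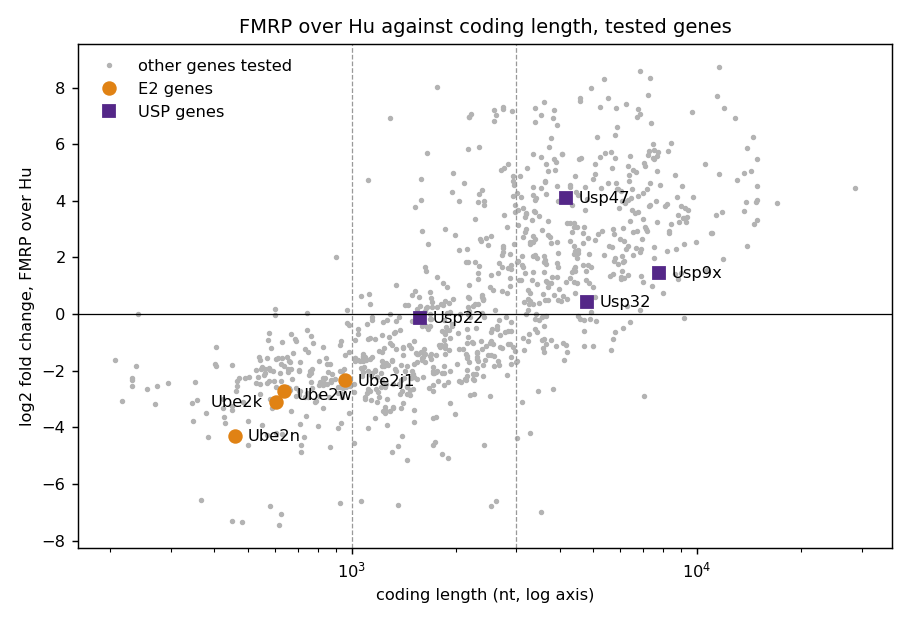
Log2 fold change of FMRP over Hu against coding length (nt, log axis) for the 943 tested genes with a coding length. Circles mark E2 genes, squares USP genes and small dots other genes; dashed lines stand at 1000 and 3000 nt. The 4 E2 genes lie at the short end between -4.30 and -2.33, and Usp22, Usp32, Usp9x and Usp47 lie between -0.13 and 4.11 at longer coding lengths.

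Within the transcripts, FMRP tags on USP mRNAs lay mostly in the coding sequence. In the authors' counts, 88.9 ± 6.29% of USP tags were coding (SD, n = 7 FMRP libraries). This covers 585 of the 728 USP tags, since Usp34, with 127 tags, and some table lines of other genes have no coding count. A share of 57.5% would be coding if tags lay evenly along the same transcripts. All 7 libraries were above the even share. Over all genes 81.1 ± 5.55% were coding, against 56.0% if even. Of the 162 FMRP tags of Usp9x 160 were coding, as were all 18 of Usp11 and all 19 of Usp4, 45 of 50 of Usp32 and 27 of 38 of Usp22. Of the 88 E2 tags summed over the libraries, 39.8% were coding (95% Wilson interval 30.2% to 50.2%), against 36.6% if even. The mean over libraries was 69.7 ± 31.3% (48.1% if even), but the libraries hold 1 to 52 E2 tags each, and the one with 52 was at 21.2%, below its even share of 28.6%. Ube2o supplied 20 of the 35 coding tags, and without it the summed share was 22.7% (95% Wilson interval 14.3% to 34.2%), against 24.0% if even.

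Hu tags on USP mRNAs lay further downstream than FMRP tags. Tags were placed relative to transcript length for the USP genes whose length is given and holds all their tags, which leaves out Usp24, Usp31 and Usp32 and keeps 205 of 259 and 303 of 393 FMRP tags in P11 and P13 and 94 of 122 and 161 of 259 Hu tags. The fraction of tags in the third of the transcript nearest the 3′ end was 10.2% and 8.25% in FMRP P11 and P13, against 62.8% and 54.7% in Hu P11 and P13. Usp9x supplied many of these, and without it the fractions were 16.0% and 11.6% in FMRP, against 40.4% and 37.1% in Hu. Both FMRP libraries remained below both Hu libraries. On E2 mRNAs the fractions were 31.8% and 31.6% in FMRP and 38.3% and 25.8% in Hu, and the proteins overlapped.

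Single transcripts show the same arrangement. Usp32 had nearly equal numbers of tags from both proteins, yet the middle of its 44 FMRP tags lay at a median of 3289.5 nt from the transcript start (quartiles 1707 and 3997), against 5587 nt (5198 and 5612) for its 43 Hu tags. The quartiles did not overlap. Usp31 had a median of 2730 nt for 68 FMRP tags, against 8872.5 nt for 83 Hu tags, of which 26 lay within one 100 nt window. Usp22 had 1956.5 nt for 20 FMRP tags, against 3201 nt for 28 Hu tags. Usp9x had 4497 nt for 234 FMRP tags, against 10010 nt for 106 Hu tags, most of which have no unique genomic place as described above.

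E2 transcripts differed in where their Hu tags lay. On Ube2n the 57 Hu tags ran from 654 to 3822 nt of a 3851 nt transcript, with at most 9 in any 100 nt window, and on Ube2k the 70 Hu tags ran from 876 to 4379 nt with 21 in the fullest window. Ube2w was more concentrated: 22 of its 36 Hu tags (61.1%) lay in one 100 nt window. These 36 tags had only 24 distinct positions, so part of the concentration is repeated tags at the same position. Its Hu tags lay between 253 and 1856 nt of a 4556 nt transcript. On Ube2q2, 12 of 15 Hu tags (80.0%) lay in the third nearest the 3′ end. The quartiles of the Hu tags lay at 1648 and 3178 nt on Ube2n and at 2295 and 3322 nt on Ube2k, stretches longer than their coding sequences of 459 and 603 nt.

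**Figure D5:**
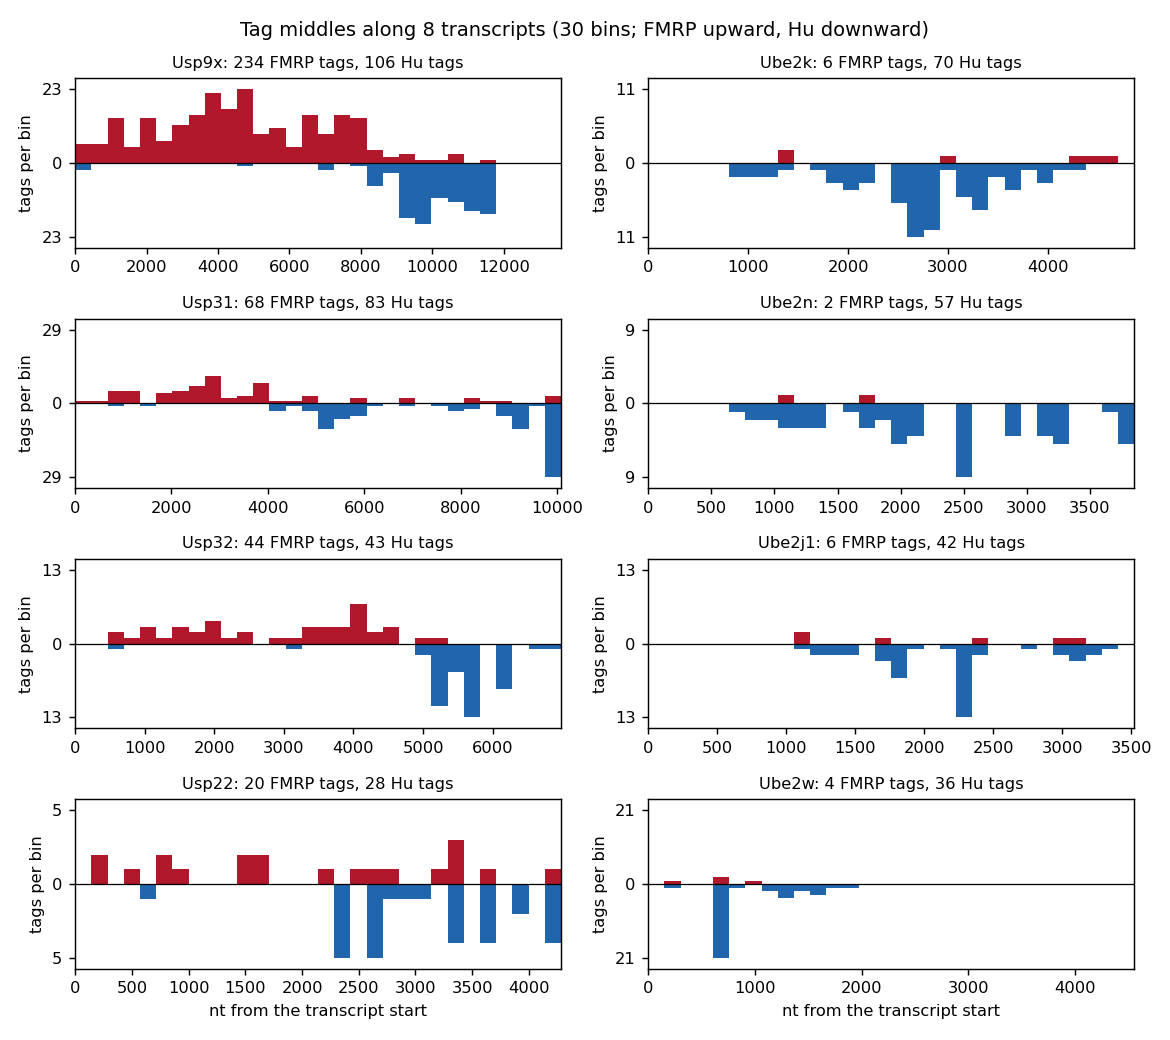
Number of tags per bin (30 bins per transcript) by distance in nt from the transcript start for 4 USP genes (left) and 4 E2 genes (right), with the P11 and P13 libraries summed. Bars above the line are FMRP tags and bars below it Hu tags. On Usp32 the FMRP median is 3289.5 nt and the Hu median 5587 nt, whereas Ube2n and Ube2k have few FMRP tags and Hu tags along most of the transcript.

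Other genes of the ubiquitin pathway were tallied the same way, against the background of 33.6% higher and 27.3% lower. Of 8 E1 genes, 1 was tested and was higher in FMRP: Uba1, the main ubiquitin-activating enzyme, with 15 and 22 FMRP tags against 3 and 3 Hu tags (log2 2.92, SE 0.70). Of 20 E4 and HECT ligase genes, 9 were tested, 8 were higher and none lower, with a median log2 difference of 3.70, and the list held 982 FMRP tags and 159 Hu tags. Among all tested genes with a coding sequence of 3000 nt and over, 68.5% were higher, with a median of 2.89. The ligases were not set against genes of their own length. Herc2, a very large HECT ligase, had 80 and 105 FMRP tags against 0 and 3 Hu tags (log2 6.27, SE 0.88), Huwe1 146 and 176 against 5 and 8 (log2 4.98, SE 0.65), Ube3b 14 and 21 against 0 and 1 (log2 5.17, SE 0.87) and Herc1 43 and 77 against 2 and 5 (log2 4.43, SE 0.71). The adjusted p from edgeR was 0.00223 in each of these 4 ligases. Ube3a, with 6 and 15 FMRP tags against 12 and 35 Hu tags, was the ligase not called (log2 -0.74, SE 0.69, edgeR adjusted p = 0.363). Of 27 deubiquitinases outside the USP family, 1 was tested and was higher, Bap1, with 9 and 18 FMRP tags and none in Hu. The list as a whole held 79 FMRP tags and 105 Hu tags. The 4 ubiquitin genes (6 FMRP and 2 Hu tags) and the 34 proteasome subunit genes (89 FMRP and 43 Hu tags) had no gene with enough tags for the test.

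Antibody, age and protocol were compared within the FMRP libraries on the authors' counts. Between monoclonal and polyclonal libraries of Protocol 1, edgeR tested 96 genes and called 0 (0.00%; 3 at an unadjusted p under 0.05, and 0 by DESeq2). Between P25 and the younger ages it called 0 of 96 (0.00%; 5 at an unadjusted p under 0.05, and 0 by DESeq2). No E2 or USP gene had enough tags on 454 for either test, and without the filter 6 E2 and 33 USP genes were tested with none called, so differences of the members with antibody or age were not detectable at this depth. Between Protocol 2 and Protocol 1, with the same polyclonal antibody, edgeR called 28 of 334 genes (8.38%), 14 of them higher with Protocol 2 (4.19%). Without either Protocol 1 library it called 1 gene, without P13 it called 0, and without P11 it called 18 higher and 2 lower. Usp9x was among the 14 higher with all libraries, at a log2 difference of 2.36 (SE 0.67, edgeR adjusted p = 0.0459), with 58 and 89 tags in the Protocol 2 libraries against 1 and 5 in the Protocol 1 libraries. DESeq2 did not call it (adjusted p = 0.391), nor did edgeR without either Protocol 1 library or without the P13 library. Usp34 was the other member tested (log2 1.59, SE 0.60, edgeR adjusted p = 0.112). Protocol, sequencing platform and age cannot be told apart in this comparison.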

How the data were processed

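Per the submitters' processing notes, reads were aligned with Novoalign to mm9 (no version given). The deposited lists hold unique tags on the genome and on RefSeq transcripts, and each line was counted as 1 tag. The values beside the tags in those lists, which the files hold as counts for 454 and as a score for Illumina, were not used. The authors' gene table gives, for each of the 7 FMRP libraries, a whole-number count per gene over the transcript and another over the coding sequence, with an exon array intensity, the authors' p-value and an FDR with values above 1, taken as a score, all as deposited by the authors. Lines of one gene were summed.

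The sum of tags per gene from the transcript lists was named through RefSeq (161210 tags), through the authors' table (15377) or left as an accession (1033). FMRP and Hu were compared on these lists, since the table has no Hu columns. Tests used edgeR 4.0.16 in R 4.3.3 (TMM, filterByExpr, quasi-likelihood, two-sided, Benjamini-Hochberg at 0.05 over all genes tested). Each comparison was fitted on the libraries it names, age with antibody as a term, and the fit of FMRP against Hu was tested on simulated data. DESeq2 1.42.0, other scalings, no filter, 1 tag per position, genomic tags within the table's mm9 gene bounds and each library left out were the alternatives. Counting only tags whose read has a unique genomic place was added after the data were seen. Per the series text the P11 and P13 lysates were each divided between both antibodies, so libraries of a lysate are paired, and the deviations of same-lysate libraries from their group means correlated at r = -0.0685 over 1015 genes.

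Shares carry 95% Wilson intervals and ratios exact counting intervals, and intervals and the limit of 3 counts cover counting error only. A fold against 0 tags used 3 counts over the group. P-values measure the spread between these pools, which differ in age. Transcript tags are on the sense strand, and genomic tags were counted on both strands. Tags of near-identical copies (Usp9x and Usp9y, the Ube2d genes) may be split between genes. Genes named are, in each group, the 10 with most FMRP tags, the 10 with most Hu tags and those called, and of the pathway lists the called genes with the smallest adjusted p, at most 4 a list; Ube3a was named after its values were seen. The members and lists were chosen with earlier results of these data known. Plots and descriptions used Python 3.11.15, pandas 2.3.3, scipy 1.17.1 and matplotlib 3.10.9.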

Additional observations from a re-analysis of the deposited data

How the results depend on the processing

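The 7 member calls of FMRP against Hu had the same direction under each alternative that gave a value. The genes tested and not called did not: Usp31 was at -0.03 with library totals, and Usp22 at 0.22 with DESeq2 and 0.21 with its size factors in edgeR. The replicate block for the lysate gave the same 7 member calls (4 E2 genes lower, 3 USP genes higher) and changed no member call. Over all genes it called 331 higher and 269 lower, against 341 and 277 without the block. E2 genes lower in FMRP numbered 4, but 2 with DESeq2 and 2 without the filter, and 0 to 3 with 1 library left out. With 1 tag per position 3 E2 genes were lower, and Ube2w was not tested. On genomic tags 1 USP gene, Usp46, was lower. With 1 library left out, 2 to 3 USP genes were higher. Over all genes, lower calls were 128 with DESeq2 and 155 without the filter, 77 (without FMRP P11) to 204 with 1 library left out, 109 without Hu P11 and 84 without Hu P13. Higher calls were 214 (without Hu P11) to 429. A lone library in a group was assumed to vary like the others. The E2 share had a log2 difference of -2.15, with -2.51 to -1.85 as libraries were left out and -2.42 on tags with a unique genomic place, where the USP share had 1.20 instead of 0.91. Scaling moved the median of all genes from -0.16 to 0.21 (DESeq2 size factors, a shift of 0.37; 382 higher, 238 lower) and to -0.38 (library totals, a shift of -0.22; 337 higher, 366 lower), and leaving out Hu P13 moved it to 0.98. The one protocol call was lost with DESeq2 (0 calls) and was 0 to 1 with libraries left out. Depth limits the antibody and age comparisons, where no member passed the filter.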
